A study of Mus musculus with 16 samples.

Results

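Total RNA of leukaemic cells was compared between mice fed a diet without valine (0 g/kg) and mice fed a control diet with 8 g/kg valine. Each diet had 2 total RNA libraries, labelled T-ALL 2 and T-ALL 3, so that 4 of the 16 libraries of the series carry the comparison. Genes with a mean of at least 1 FPKM over the 8 total RNA libraries were tested, which kept 10054 of the 12012 genes listed. FPKM are reads per kilobase of gene length, relative to a divisor per library that the authors set. The mice were C57BL/6 and had received, as a secondary transplant, a T cell leukaemia of the acute lymphoblastic type (T-ALL) that expresses NOTCH-ΔE, a Notch receptor active without ligand. All groups were kept on their diets for 3 weeks, after which GFP-positive leukaemic cells were sorted from the spleen. The series also holds total RNA from mice given 0.4 or 0.8 g/kg valine, and ribosome-protected fragments (RPF) from the same 4 diets. The labels give valine per kg of diet in one field and valine in drinking water in another for the partial doses, and the per kg values are used here. They state neither the vector that carried NOTCH-ΔE, nor whether animals were pooled, nor whether the T-ALL numbers mark separate tumours or separate recipient mice. The spread between the 2 libraries of a diet may thus be technical in part.

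Valine is an essential branched-chain amino acid, taken up from food and charged onto its tRNA by the valyl-tRNA synthetase. When an amino acid runs short, uncharged tRNA activates the kinase GCN2 (gene Eif2ak4), which phosphorylates the initiation factor eIF2, slows general initiation and favours translation of the transcription factor ATF4. ATF4 and its partners then induce genes for amino acid synthesis, amino acid transport and tRNA charging, together with feedback regulators such as the phosphatase subunit GADD34 (gene Ppp1r15a). In parallel, low amino acids silence the growth kinase complex mTORC1, which otherwise promotes ribosome production. T-ALL cells driven by Notch depend on its target Myc for growth.

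The libraries at 0 g/kg held 704777 reads for T-ALL 2 and 428278 for T-ALL 3, and the control libraries held 1269364 and 846162. The control was therefore the deeper library in both T-ALLs, and depth moved with diet. The test was limma on log2(FPKM + 0.5) over all 8 total RNA libraries, and each standard error (SE) rests on the spread in all of them. A change of a gene with few reads is understated on this scale. No gene passed at an adjusted p of 0.05 (0% of 10054 genes), the lowest adjusted p being 0.0783. At an unadjusted p under 0.05 limma had 258 genes higher (2.57%) and 404 lower (4.02%) at 0 g/kg. With limma's voom on the recovered reads that split was 373 higher (3.71%) and 289 lower (2.87%), and after a correction for gene length it was 332 and 315. Voom called 3 genes after adjustment (0.0298% of those tested), namely Hspa1a, Pck2 and Ppp1r15a, all higher. The 2 libraries at 0 g/kg both lay above both controls for 1615 genes (16.1%) and below both for 2038 (20.3%). Shares of list members outside the controls are set against these percentages. Some members counted were under 1 FPKM in both libraries of a diet, such as Pycr1, Stc2, Ier3, Slc7a3, Hspa1b and Rragd. They passed the filter only through other libraries, which favours 1 direction for them. Changes given per T-ALL set a library at 0 g/kg against the control of the same number. The numbers were not taken to pair the libraries. The median log2 change over all genes tested was -0.04, with 46% of them above 0 and 54% below. These counts depended on single libraries: without T-ALL 2 at 0 g/kg, limma had 2 genes past adjustment and 1193 at an unadjusted p under 0.05, and without T-ALL 3 at 8 g/kg, 0 and 335. The count past adjustment was 1 without T-ALL 3 at 0 g/kg and 1 without T-ALL 2 at 8 g/kg, and the latter left 219 lower genes at an unadjusted p under 0.05.

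Markers of other blood cells differed between the diets in the sorted cells, and these values bear on every other difference given here. The 14 neutrophil markers in the table summed to 4.87 (T-ALL 2) and 2.36 (T-ALL 3) per 10000 reads at 0 g/kg, against 0.189 and 0.165 in the controls. With so few reads in the controls, some of the 12 that were tested passed the level filter only through the libraries without valine, so no count of them is given as support. The neutrophil granule enzyme Mpo had 50 and 4 reads against 0 and 0. With both libraries of a diet pooled this is a difference of at least 32.5-fold, carried by the 50 reads of T-ALL 2. Lactoferrin, Ltf, had 26 and 10 reads against 1 and 0. The 13 erythroid markers summed to 2.03 and 1.17 per 10000 reads at 0 g/kg against 3.95 and 5.96 in the controls. Some of the 10 tested passed the filter only through libraries with valine, and their direction is likewise not counted. Hbb-bs, a β-globin, had 4 and 2 reads against 89 and 171. In contrast, macrophage and monocyte markers overlapped, at 0.27 and 0.327 against 0.189 and 0.272 per 10000 reads, with Cd68 at 0 reads in both libraries at 0 g/kg. The B cell list had only 3 members in the table, summing to 0.653 and 0.771 against 0.228 and 0.0945 per 10000 reads, with Cd79b at 0 in all 4 libraries. The T cell list, with Cd3e, Cd3d and Lck, summed to 32.5 and 31 against 31.1 and 40 per 10000 reads, and these defining T cell markers were present in all 4 libraries. In bulk RNA, a larger share of a cell type and more RNA per cell of it cannot be told apart. The part of these other cells in the remaining differences was not tested.

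**Figure D1:**
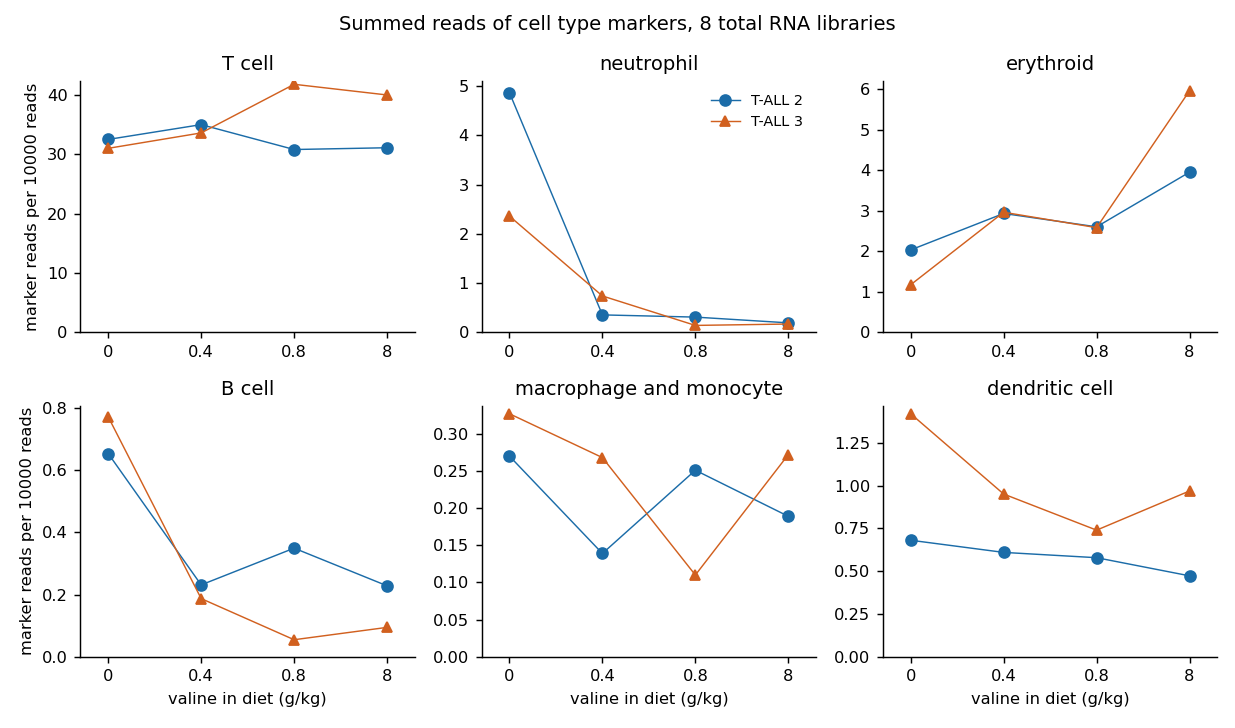
Summed reads of cell type markers per 10000 recovered reads (linear axis from 0) in the 8 total RNA libraries, by valine in the diet (evenly spaced, not to scale); circles are T-ALL 2 and triangles T-ALL 3, 1 library each. Neutrophil markers are at 4.87 and 2.36 without valine and below 1 in all other libraries, while erythroid markers are highest in the 2 controls.

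The enzymes of the amino acid response, which make serine, glycine, asparagine, proline and one-carbon units, had more RNA in the mice without valine. Of the 15 genes on this list 12 were tested, and all 12 were higher, with a median log2 change of 0.73 (0.66 in T-ALL 2 and 0.69 in T-ALL 3). For 10 of the 12 both libraries lay above both controls, where 16.1% of all genes did, and 7 had an unadjusted p under 0.05. The 12 and the 10 include Pycr1, at 0.6 and 0.889 FPKM in the controls, which passed the filter only through other libraries. Together the list members took 22.6 and 21.9 per 10000 reads at 0 g/kg against 14.4 and 13.5 in the controls, with no overlap.

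Asns, which makes asparagine, had 49.8 FPKM in T-ALL 2 and 56.2 in T-ALL 3 at 0 g/kg, against 3.47 and 1.93 in the controls. These rest on 65 and 47 reads against 8 and 3. Both libraries without valine stood far above either control, a log2 change of 4.10 ± 0.68 (SE; limma adjusted p = 0.202). Pck2, the mitochondrial enzyme that turns oxaloacetate into phosphoenolpyruvate, had 30 and 24.8 FPKM against 5.92 and 8.76. Its log2 change was 1.85 ± 0.29 (limma adjusted p = 0.174), and voom, which weights by read number, called it at 1.98 (adjusted p = 0.0465). Pck2 thus rose by the count test alone. Mthfd2, a mitochondrial folate enzyme, had 81.5 and 101 FPKM against 34.8 and 37.9, a log2 change of 1.31 ± 0.25. Shmt2, the mitochondrial serine hydroxymethyltransferase, had 220 and 196 FPKM against 131 and 116, at 0.75 ± 0.18. The serine pathway did not move evenly. Psat1, its transaminase, had 124 and 114 FPKM against 82.2 and 63.4 (0.72 ± 0.21). Its first enzyme Phgdh, the most abundant of the list, had 411 and 357 against 340 and 330 (0.19 ± 0.14). Psph, its last enzyme, overlapped with 17.2 and 22.6 against 14.9 and 18.5. Below the level filter, Cth had 1 and 0 reads against 0 and 0, and Cbs had 0 reads in all 4 libraries.

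The 250 bases before the start of Asns, Pck2 and Aars are shown as examples of windows that hold a match, and were picked for it. Genes with larger changes than Aars, such as Ppp1r15a and Atf5, are not shown. The response is known to act through a C/EBP-ATF response element (CARE) to which ATF4 binds. They come from RefSeq (GRCm38.p6) and run 5′ to 3′ on the gene's strand, with matches to the core letters TGATGNAA on either strand in capitals. Asns lies on the minus strand with its window at chr6:7693210-7693459, Pck2 on the plus strand at chr14:55540016-55540265, and Aars on the plus strand at chr8:111033592-111033841.
Asns: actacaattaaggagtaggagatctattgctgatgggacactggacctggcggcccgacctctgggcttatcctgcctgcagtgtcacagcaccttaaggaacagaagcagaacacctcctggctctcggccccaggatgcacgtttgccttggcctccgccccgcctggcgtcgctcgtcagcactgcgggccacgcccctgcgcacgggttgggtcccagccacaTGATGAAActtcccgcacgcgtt
Pck2: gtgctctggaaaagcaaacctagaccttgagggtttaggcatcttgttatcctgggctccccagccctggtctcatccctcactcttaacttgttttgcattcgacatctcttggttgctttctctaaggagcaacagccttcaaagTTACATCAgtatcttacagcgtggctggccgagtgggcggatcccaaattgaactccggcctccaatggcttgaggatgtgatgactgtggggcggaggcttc
Aars: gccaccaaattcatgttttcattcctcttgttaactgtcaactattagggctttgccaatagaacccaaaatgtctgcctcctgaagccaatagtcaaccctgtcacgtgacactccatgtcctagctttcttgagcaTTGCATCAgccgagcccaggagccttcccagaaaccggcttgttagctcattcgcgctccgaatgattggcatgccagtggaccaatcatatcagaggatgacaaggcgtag

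The first base of the match lay 23 bases before the start for Asns, 103 for Pck2 and 112 for Aars. The core was present in 3.45% of all 32851 promoter windows of this length and in 1.87% of the 9847 windows of tested genes. Of the 12 enzymes of the response with a window, 4 held it (Asns, Got1, Pck2 and Pycr1), as did 3 of 12 synthetase genes (Aars, Gars and Tars). List counts are per tested gene, with any window of the gene holding the core, while the percentages are per window. A gene with several windows has more chances of a match, so counts and percentages are not alike. Got1 overlapped between the diets, with 28.5 and 19.9 FPKM against 22.5 and 17.6, so that the letters were found in genes with and without a difference. Among the tested regulators 1 of 16 (Jdp2) and among the tested transporters 0 of 10 held the core. Chac1, a regulator under the level filter and so not counted, also held it, 193 bases before the start. A match of letters is no evidence of binding, and its absence covers only this window.

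**Figure D2:**
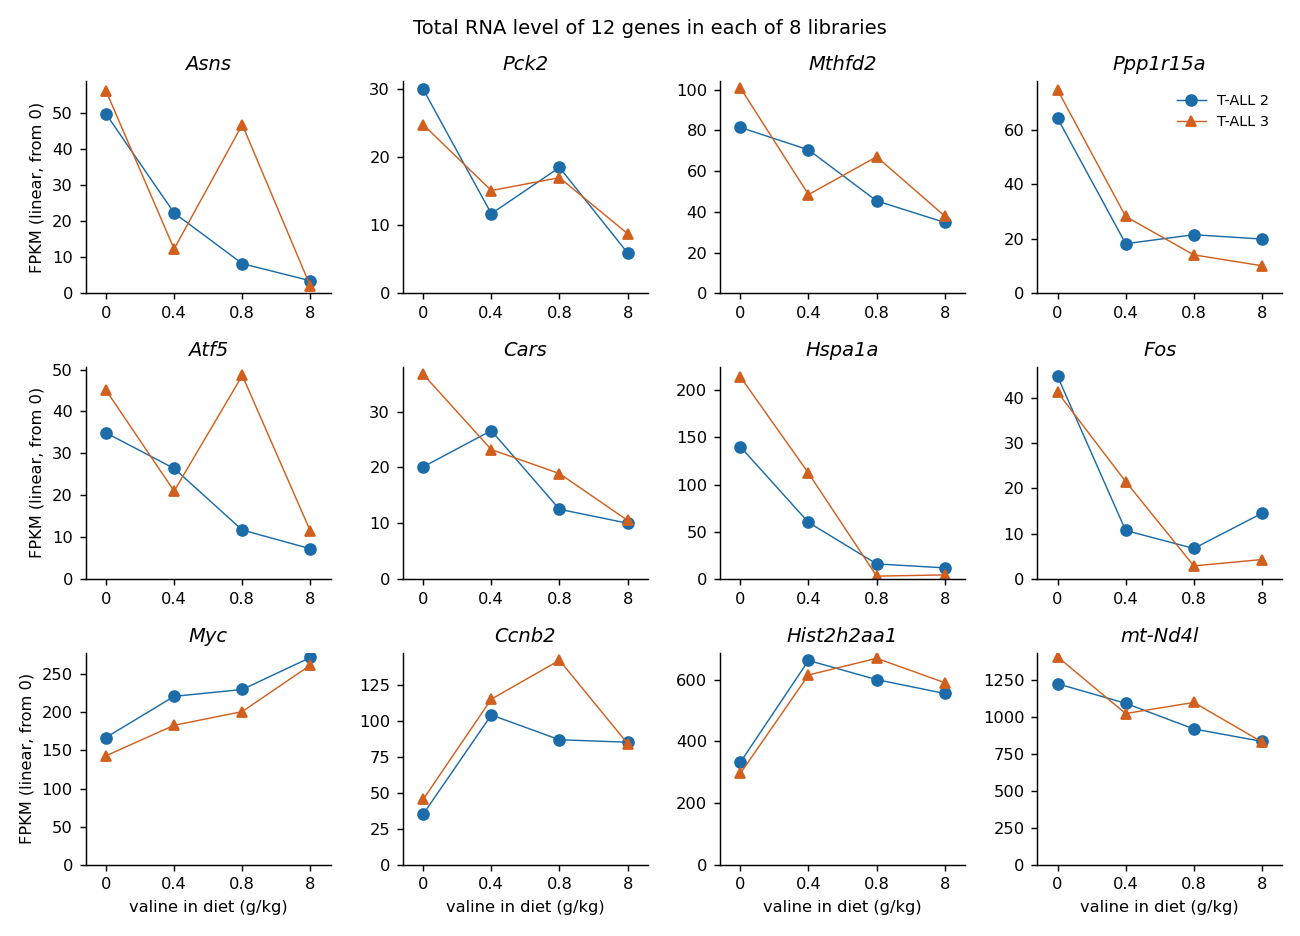
FPKM (linear axes from 0) of 12 genes in the 8 total RNA libraries by valine in the diet (evenly spaced, not to scale); circles are T-ALL 2 and triangles T-ALL 3, joined for reading only. Asns, Pck2, Mthfd2, Ppp1r15a, Atf5, Cars, Hspa1a, Fos and mt-Nd4l are higher in both libraries without valine than in both controls, and Myc, Ccnb2 and Hist2h2aa1 lower, while Asns in T-ALL 3 is at 46.8 FPKM with 0.8 g/kg.

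Regulators of the integrated stress response, the pathway from eIF2 to ATF4, split into a higher and a lower part. Of 19 tested members 12 were higher, 10 lay above both controls and 4 below both, with a median log2 change of 0.53 (0.31 in T-ALL 2 and 0.75 in T-ALL 3). That median was 0.09 over members with a mean of at least 5 FPKM, 0.94 without T-ALL 2 at 0 g/kg and 0.26 without T-ALL 3 at 0 g/kg. Ppp1r15a, the subunit that ends the response by directing dephosphorylation of eIF2, had 64.3 and 74.7 FPKM against 19.9 and 10.1. Its log2 change was 2.24 ± 0.37 (limma adjusted p = 0.202), and voom called it at 2.18 (adjusted p = 0.0229). The transcription factor gene Atf5 had 34.9 and 45.1 FPKM against 7.22 and 11.4, a log2 change of 2.07 ± 0.56. Atf5 is itself read out through upstream reading frames, like Atf4. Atf4 had 68.1 and 126 FPKM against 54.3 and 60.1, so that both libraries were higher but those without valine differed widely (0.69 ± 0.35). Stc2, a secreted glycoprotein of the response, rested on 6 and 10 reads against 1 and 0. It is counted among the higher members, but at 0.22 and 0 FPKM in the controls it passed the filter only through other libraries.

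Lower in both libraries were Ddit4, Ppp1r15b and 2 of the eIF2 kinases. Ddit4, the most abundant member of the list, had 82.5 and 120 FPKM against 128 and 123. Ppp1r15b had 15.2 and 19 against 19.1 and 19.4. The RNA-sensing kinase gene Eif2ak2 had 2.86 and 5.03 FPKM against 6.69 and 9.01 (-0.94 ± 0.42). The haem-sensing kinase gene Eif2ak1 had 10 and 10.6 against 14.8 and 14.4 (-0.48 ± 0.26). Eif2ak4, the kinase that senses uncharged tRNA, overlapped, with 6.7 and 4.09 FPKM against 5.94 and 7.33. The apoptosis-linked targets of ATF4 were scarce. Ddit3 (CHOP) had 7 and 9 reads against 8 and 8 in libraries of unequal depth, or 11.2 and 22.4 FPKM against 7.22 and 10.7. Trib3, a pseudokinase, had 2 and 5 reads against 3 and 1. Chac1, a glutathione-degrading enzyme, had 0 and 1 reads against 0 and 0 and was not tested. Sesn2, a leucine sensor upstream of mTORC1, had 4 and 5.55 FPKM against 0.503 and 2.61 (1.56 ± 0.71). At these depths differences in such genes were barely detectable.

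Genes for the enzymes that charge tRNAs were higher by smaller amounts. Of 20 cytosolic aminoacyl-tRNA synthetases 13 were higher, 9 lay above both controls and 3 below both, with a median log2 change of 0.11. Summed over the list they took 45.6 and 46 per 10000 reads against 40.2 and 38.1. Cars, for cysteine, had 20.1 and 36.7 FPKM against 10 and 10.5 (1.37 ± 0.33; limma adjusted p = 0.389). Aars, for alanine, had 40.8 and 44.9 against 27.7 and 20.3 (0.84 ± 0.28). Yars, for tyrosine, had 40.9 and 45.6 against 22.6 and 25.8 (0.83 ± 0.26). In these 3 genes each library without valine was above each control. Vars, the synthetase for valine itself, overlapped, with 183 and 170 FPKM against 175 and 160 (0.08 ± 0.13). Kars, for lysine, was lower, with 159 and 124 against 172 and 160 (-0.24 ± 0.16).

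Amino acid transporters had no common direction: of 15 tested, 7 were higher, 6 lay above both controls and 4 below both. Their median log2 change was -0.13, although it was -0.02 in T-ALL 2 and 0.23 in T-ALL 3. Slc1a5, a glutamine carrier, had 82 and 106 FPKM against 66.4 and 63.7 (0.51 ± 0.18). Both chains of the main importer of branched-chain amino acids were higher. Its heavy chain Slc3a2 had 76.9 and 92.5 FPKM against 68.1 and 60.8 (0.39 ± 0.18), and its light chain Slc7a5 had 68.5 and 67.9 against 51.2 and 47.1 (0.47 ± 0.28). The cationic amino acid carrier Slc7a3 had 4 and 6 reads against 0 and 0, a difference of at least 6.01-fold. Lower were Slc7a6, another cationic carrier, with 11.2 and 12.3 against 16.9 and 18.4 (-0.57 ± 0.24), and Slc25a44, the mitochondrial branched-chain carrier, with 2.59 and 2.02 against 3.91 and 6.88 (-1.03 ± 0.45). Slc43a1, a facilitative carrier of branched-chain amino acids, overlapped, with 26 and 19 FPKM against 26.3 and 25.4.

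The lists for the sensing and the breakdown of branched-chain amino acids had medians near 0 over both T-ALLs. The 26 tested genes of mTORC1 and its amino acid sensors had a median of 0.02, but -0.01 in T-ALL 2 and -0.37 in T-ALL 3. Of them 4 lay above and 8 below both controls. The median was below 0 after correction for gene length, and ranged from -0.19 to 0.08 with 1 library left out. The Ragulator subunits Lamtor4 (15.8 and 12.3 against 24.1 and 33 FPKM) and Lamtor5 (19.3 and 8.21 against 24.8 and 27.9) were among those below. The 24 breakdown enzymes also had a median of 0.02, with 2 above and 5 below both controls and 0 at an unadjusted limma p under 0.05. Bcat1, the cytosolic transaminase, had 6.7 and 1.85 FPKM against 1.23 and 2.15, high only in T-ALL 2. Its mitochondrial counterpart Bcat2 had 35.6 and 20.9 against 18.1 and 23.7. Bckdha, a subunit of the ketoacid dehydrogenase, had 35.8 and 34.3 against 44.2 and 31.4.

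The inducible HSP70 genes had the highest log2 changes among the stress lists given here, while several abundant chaperones differed little. Hspa1a had 140 and 214 FPKM (269 and 264 reads) at 0 g/kg against 11.8 and 4.37 (40 and 10 reads). It rose by voom, at a log2 change of 4.39 (adjusted p = 0.00825), and had 4.49 ± 0.70 in limma (adjusted p = 0.174). Its copy Hspa1b had 26 and 17 reads against 0 and 0, a difference of at least 25.8-fold. Hspa1l, which neighbours Hspa1a on chromosome 17, had 45 and 44 reads against 7 and 1. Hspa1a and Hspa1b are near-identical copies, so that reads of one may be counted for the other. Over all 18 tested members of the list, these 3 included, the median was 0.13, with 7 above both controls and 1 below. Hspa8, the constitutive HSP70, had 1323 and 1147 FPKM against 1145 and 1062 (0.16 ± 0.11), and Hsp90ab1 had 2153 and 1706 against 2392 and 2044 (-0.21 ± 0.14). The HSP40 gene Dnaja1 had 70 and 48.9 against 45.4 and 38.5 (0.48 ± 0.21).

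The windows before Hspa1a and Hspa1b are shown because both are known to respond through heat shock elements, and because they show how alike the copies are. Both genes lie on the minus strand, with windows at chr17:34972157-34972406 for Hspa1a and chr17:34959239-34959488 for Hspa1b (RefSeq, GRCm38.p6). Capitals mark the core letters GAANNTTC, which read the same on both strands.
Hspa1a: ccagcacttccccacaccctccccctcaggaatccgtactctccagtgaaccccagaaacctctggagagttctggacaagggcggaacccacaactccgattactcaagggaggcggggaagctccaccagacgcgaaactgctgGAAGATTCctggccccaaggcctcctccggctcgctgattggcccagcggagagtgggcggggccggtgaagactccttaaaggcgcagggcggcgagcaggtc
Hspa1b: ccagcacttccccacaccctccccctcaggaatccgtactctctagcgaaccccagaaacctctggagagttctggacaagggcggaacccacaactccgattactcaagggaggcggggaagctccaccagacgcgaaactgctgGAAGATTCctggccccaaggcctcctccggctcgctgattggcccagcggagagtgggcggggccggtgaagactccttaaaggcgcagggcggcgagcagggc

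The 2 windows were identical at 247 of 250 bases, with the match starting 104 bases before the start in both. This core was present in 6.69% of all windows and in 4.96% of those of tested genes. Counted per gene rather than per window, 5 of 14 heat shock genes held it (Dnaja1, Hspa1a, Hspa1b, Hspd1 and Hspe1). The Asns window holds it as well, where it overlaps the CARE match.

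Endoplasmic reticulum stress genes, most of them folding enzymes of the secretory pathway, were mildly higher: 15 of 20, with 8 above both controls, 1 below and a median of 0.19. Pdia6, a disulfide isomerase, had 67.4 and 86.4 FPKM against 46.6 and 53.6 (0.61 ± 0.18). Hspa5 (BiP), the central sensor chaperone, had 154 and 200 against 146 and 132 (0.34 ± 0.17). The list median was 0.02 in T-ALL 2 and 0.31 in T-ALL 3.

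Immediate early genes, which are transcribed within minutes of growth signals or of stress, were mostly higher. Of 18 members, Fosb and Atf3 were under the filter. All 16 tested had a log2 change above 0, 13 of them in both T-ALLs. In T-ALL 2, Egr3 (2.18 against 7.41 FPKM), Klf6 (1.1 against 1.87) and Dusp2 (70.7 against 80.1) were lower without valine. The 16 include Ier3, at 0.773 and 0 FPKM in the controls, which passed the filter only through other libraries. Of the 16, 12 lay above both controls and 0 below, with a median of 0.94. The size differed between the T-ALLs, at 0.55 in T-ALL 2 and 1.46 in T-ALL 3. Fos had 44.7 and 41.2 FPKM against 14.5 and 4.3 (2.35 ± 0.59; limma adjusted p = 0.402). Jun had 84.3 and 80.9 against 42.2 and 30.1 (1.2 ± 0.29). Dusp1, a phosphatase of stress kinases, had 60.1 and 88.6 against 36.3 and 14.6 (1.64 ± 0.41). The groups were apart in all 3 genes, but the controls differed among themselves, with T-ALL 2 the higher. Nr4a1, which also responds to T cell receptor signals, had 28.1 and 74 FPKM against 19.1 and 25.7 (1.03 ± 0.42), with the higher value in T-ALL 3.

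**Figure D3:**
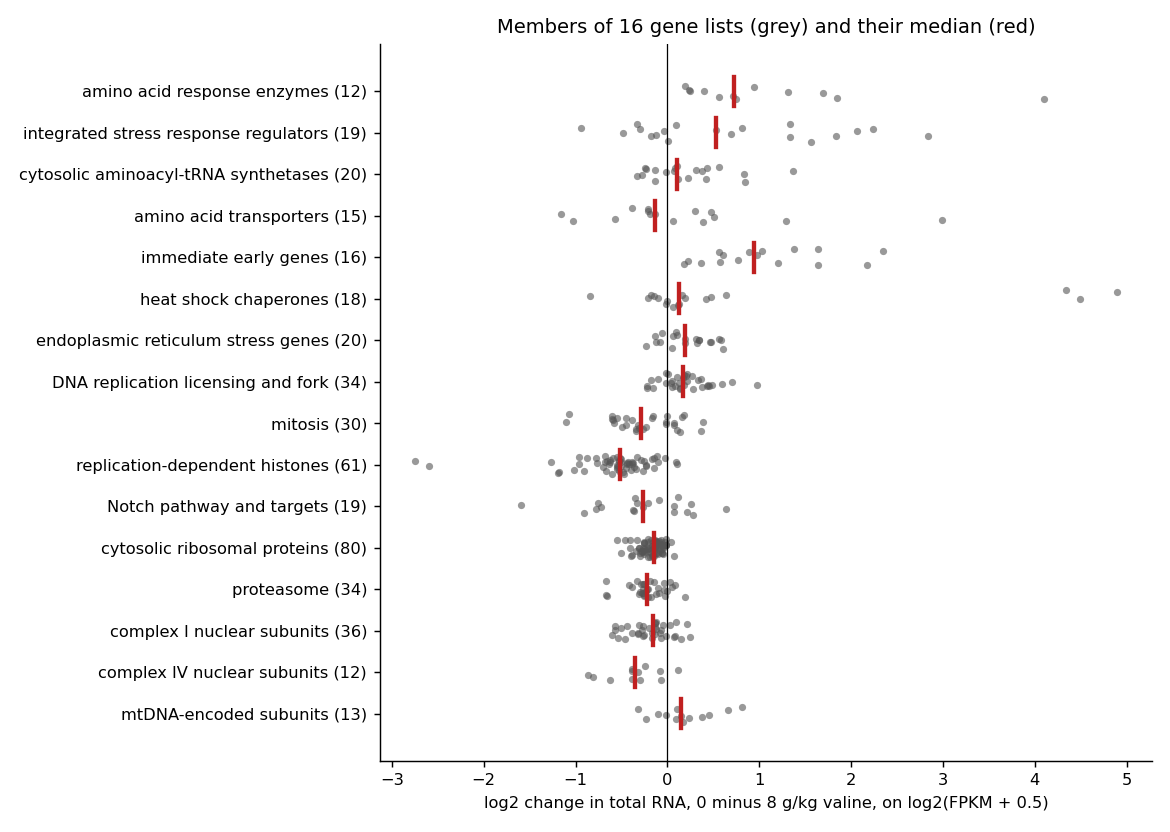
Log2 change in total RNA at 0 against 8 g/kg valine on the log2(FPKM + 0.5) scale; each grey point is a tested member of the list (number of members in brackets), red bars are list medians and the line is at 0. All points of the amino acid enzymes and immediate early genes lie above 0, and nearly all histones and ribosomal proteins below it.

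Among genes of the cell cycle, those of DNA replication were higher in 27 of 34, with 14 above both controls and 0 below, and a median of 0.17. The median was 0.34 in T-ALL 2 and -0.01 in T-ALL 3. Summed reads of the list were higher in both, at 78.2 and 74 per 10000 against 62.3 and 66.5. Cdc6, which loads the replicative helicase, had 22.8 and 21.6 FPKM against 12.8 and 9.44 (0.98 ± 0.27). Rrm2, the regulated subunit of ribonucleotide reductase, had 119 and 137 against 90.5 and 99.2 (0.43 ± 0.15). The most abundant member, Pcna, overlapped with 485 and 427 against 378 and 435.

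Mitotic genes had a median below 0, although their summed reads overlapped, at 29.4 and 37.6 per 10000 against 33.2 and 38.7. Of 30 tested 9 were higher, 13 lay below both controls (20.3% of all genes) and 4 above, with a median of -0.29 (-0.37 in T-ALL 2 and -0.10 in T-ALL 3). Ccnb2, a mitotic cyclin, had 35.1 and 45.4 FPKM (35 and 29 reads) against 85.1 and 84.1 (150 and 100 reads). Cdc20, the activator of the anaphase-promoting complex, had 35.3 and 52.4 FPKM against 77.6 and 111. Both had about the same log2 change, -1.07 ± 0.24 and -1.10 ± 0.27 (limma adjusted p = 0.345 and 0.397). Ccnb1 had 36.6 and 46.5 against 49.2 and 79.6 (-0.60 ± 0.26). Top2a, which is made from S phase onward, was not lower, with 201 and 221 against 185 and 192.

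Replication-dependent histone genes, whose RNA accompanies DNA synthesis and mostly lacks a poly(A) tail, were lower as a group. Of 61 tested 2 were higher, 49 lay below both controls and 1 above. At an unadjusted p under 0.05 limma had 41 lower and 0 higher. They took 269 and 257 per 10000 reads at 0 g/kg against 326 and 399. Hist2h2aa1 had 332 and 296 FPKM against 555 and 590 (-0.87 ± 0.12; limma adjusted p = 0.174). Hist1h3g had 561 and 581 against 1082 and 1134 (-0.96 ± 0.16). Both libraries without valine stood at about the same level in these 2 genes, well apart from the controls. Their sequences are alike, so single members are uncertain. The list median was -0.52, and -0.28 after correction for gene length.

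That correction matters because the change depended on length over all genes tested. Genes of 63 to 1802 bases had a median log2 change of -0.123, and genes of 4972 to 23495 bases one of 0.045, with the same order of these 2 bins in T-ALL 2 (-0.067 and 0.034) and in T-ALL 3 (-0.137 and 0.059). Genes of up to 1000 bases took 14% and 13% of reads at 0 g/kg against 14.7% and 15.3% in the controls. What produced this was not tested. It bears on lists of short genes, and corrected medians are given for those of the ribosome, proteasome and respiratory chain.

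**Figure D4:**
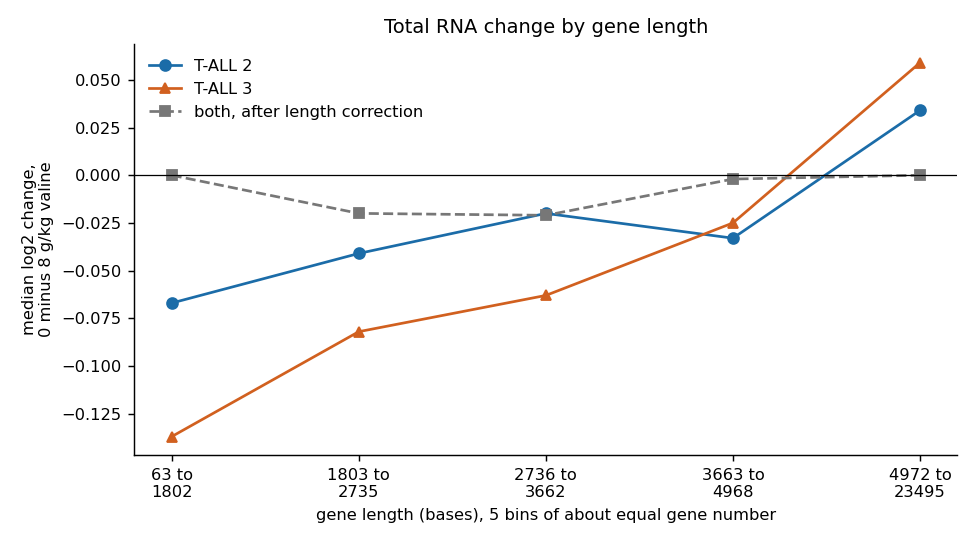
Median log2 change in total RNA (0 minus 8 g/kg valine) in 5 bins of gene length with about equal numbers of genes; circles are T-ALL 2, triangles T-ALL 3, and squares the fit over both after each library was corrected for its trend with length. The shortest bin is at -0.067 and -0.137 and the longest at 0.034 and 0.059, and after correction all bins lie near 0.

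Among them were the lists of protein production and turnover. Cytosolic ribosomal proteins were lower by small amounts, more so in T-ALL 3: 43 of 80 lay below both controls and 1 above. Their median was -0.15 (-0.08 in T-ALL 2 and -0.27 in T-ALL 3), which became -0.03 after length correction and 0.01 with quantile normalization. Their summed reads were 1270 and 1148 per 10000 against 1305 and 1304. Rpl36 had 2679 and 2220 FPKM against 3377 and 3757 (-0.55 ± 0.12), and Rplp0 had 5355 and 4750 against 6305 and 6078 (-0.30 ± 0.09). The 75 mitochondrial ribosomal proteins had a median of -0.15 (-0.10 corrected), with 29 below both controls and 3 above. Mrps34 had 19.7 and 19.2 FPKM against 38.5 and 37.1 (-0.94 ± 0.22). Of 34 proteasome subunits 15 lay below both controls and 1 above, with a median of -0.22 (-0.14 corrected). The core subunit Psmb2 had 115 and 107 against 185 and 167 (-0.67 ± 0.16). Translation factors were mixed, with 18 of 45 below both controls and 9 above. Eif4a2, an RNA helicase of initiation, had 86.7 and 97 FPKM against 64.3 and 55 (0.62 ± 0.18), and Eif3i had 163 and 118 against 196 and 194 (-0.49 ± 0.17).

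The respiratory chain, to which the title of the series ties valine, is described by the genome that encodes its subunits. Of 36 nuclear subunits of complex I, the NADH dehydrogenase, 7 were higher, 13 lay below both controls and 2 above. Their median was -0.16 (-0.11 in T-ALL 2 and -0.27 in T-ALL 3), or -0.08 after length correction. Ndufa2 had 194 and 164 FPKM against 231 and 254 (-0.44 ± 0.15), and Ndufb3 had 50.6 and 47.4 against 63 and 84.9 (-0.57 ± 0.21). Core subunits with catalytic roles did not move alike. Ndufs1, which holds iron-sulfur clusters, had 44.7 and 27.2 against 38.8 and 37 (-0.12 ± 0.26). Ndufv1, which binds NADH, had 127 and 122 against 137 and 138 (-0.14 ± 0.14). Another core subunit, Ndufv2, had 89.2 and 53.2 against 98.3 and 103 (-0.54 ± 0.30), while Ndufs3 lay above both controls with 82.7 and 78.4 against 76.1 and 69.3 (0.15 ± 0.15). Ndufa9 had 98.3 and 75.1 against 100 and 93.2, and Ndufb8 had 65.6 and 58.5 against 72.3 and 58.7.

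Nuclear subunits of complex IV (cytochrome oxidase) and of complex V (ATP synthase) were lower by more. In complex IV 9 of 12 lay below both controls and 0 above, with a median of -0.35 (-0.16 corrected). Cox5b had 57.1 and 61.3 FPKM against 116 and 100 (-0.86 ± 0.16; limma adjusted p = 0.249). In complex V 11 of 17 lay below both controls and 1 above, with a median of -0.26 (-0.15 corrected). Atp5g3 had 297 and 254 against 378 and 389 (-0.48 ± 0.13). The 13 subunits of complexes II and III had a median of -0.15 (-0.12 corrected), and 16 assembly factors of complex I one of -0.07 (-0.03 corrected).

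Subunits encoded by mitochondrial DNA had a median above 0, mainly in T-ALL 2. Of 13 genes 9 were higher, 6 lay above both controls and 1 below, with a median of 0.15 (0.26 in T-ALL 2 and 0.03 in T-ALL 3). It was 0.38 after length correction and 0.01 without T-ALL 2 at 0 g/kg. Their summed reads overlapped, at 342 and 302 per 10000 against 317 and 304. The 4 with an unadjusted p under 0.05 were all complex I subunits. The first, mt-Nd4l, had 1222 and 1404 FPKM against 833 and 829 (0.66 ± 0.12; limma adjusted p = 0.267). Next to it in the complex, mt-Nd3 had 488 and 485 against 256 and 301 (0.81 ± 0.16). Both had no overlap between diets and little spread within them. The value of mt-Nd4 was 1830 and 1655 against 1370 and 1296 (0.38 ± 0.11), and that of mt-Nd5 1157 and 952 against 747 and 788 (0.45 ± 0.19). By contrast mt-Nd1 had 3045 and 2025 against 3290 and 2929 (-0.32 ± 0.18), so complex I subunits of this genome did not move alike. The cytochrome oxidase gene mt-Co3 was below both controls, with 7174 and 5768 against 7743 and 7325.

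Notch signalling genes were mixed, with Myc the clearest. Myc had 167 and 143 FPKM (259 and 142 reads) against 272 and 262 (742 and 483 reads), a log2 change of -0.78 ± 0.15 (limma adjusted p = 0.267). Both libraries were below both controls, in T-ALL 2 by -0.70 and in T-ALL 3 by -0.87. Heyl, a Notch target of the Hes family, had 10.2 and 3.72 FPKM against 20.8 and 18.8 (-1.59 ± 0.42). Hes1, the best known target, was on the other side, with 119 and 113 against 95.3 and 58.2 (0.64 ± 0.26). Dtx1 overlapped, with 183 and 260 against 267 and 239. The receptor gene Notch1 had 258 and 272 against 275 and 369 (-0.27 ± 0.25), and reads of the transgene may be among them. Over 19 tested genes the median was -0.27, with 2 above both controls and 5 below, but it was -0.09 in T-ALL 2 and -0.15 in T-ALL 3. Without T-ALL 2 at 0 g/kg it was -0.07, and without T-ALL 3 at 8 g/kg -0.01.

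Lists of T cell identity had medians near or below 0. The 7 T cell markers were all lower, 2 of them below both controls, with a median of -0.18 (0.10 in T-ALL 2 and -0.32 in T-ALL 3). The 17 genes of the receptor complex and its coreceptors had a median of -0.01, and 19 transcription factors of the lineage one of -0.04. Cd8b1, the coreceptor β chain, had 30.2 and 26 FPKM against 40.1 and 54.1 (-0.72 ± 0.21). Cd3e had 446 and 436 against 417 and 750, with the T-ALL 3 control apart from the other 3 libraries. Ptcra, which pairs with the early receptor β chain, differed more between the T-ALLs than between diets, with 6.02 and 33.8 against 13.6 and 42.4. Il7r, the interleukin 7 receptor, had 4.33 and 9.77 against 16.1 and 10.1 (-0.91 ± 0.46). Glucocorticoid targets, which follow the stress hormone, had a median of -0.13 over 13 genes, with Fkbp5 at 112 and 155 against 142 and 166 and Tsc22d3 at 5.91 and 5.87 against 8.52 and 4.95.

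The remaining metabolic and stress lists had medians between -0.25 and 0.45. Cholesterol genes were mostly lower, with 4 of 22 higher and a median of -0.25, but with T-ALL 3 at 0 g/kg left out that median was 0.12. Srebf2, their regulator, had 46.7 and 35.3 FPKM against 66.1 and 57.6 (-0.60 ± 0.21). Hypoxia targets had a median of -0.17 over 11 genes, with 5 below both controls and 1 above, and Ndrg1 had 7.25 and 9.53 against 13.2 and 22.1 (-1.0 ± 0.33). Antioxidant genes under NRF2 had a median of -0.20 over 11, with 5 below both controls and 1 above, and with Fth1, the ferritin heavy chain, at 446 and 423 against 536 and 698. Glycolysis stood at -0.16 over 17 genes and the tricarboxylic acid cycle at -0.11 over 19. Interferon genes had a median of 0.45 over 17, which became -0.40 when T-ALL 3 at 0 g/kg was left out. Nucleotide synthesis (-0.09 over 24), nucleolar ribosome biogenesis (-0.12 over 37, with 12 below both controls and 4 above), p53 targets (0.16 over 13) and the BCL2 family (0.16 over 11) stood near 0. Map1lc3a, an autophagosome protein, had 12.5 and 6.5 FPKM against 1.57 and 3.49 (1.73 ± 0.49), in an autophagy list with a median of -0.03.

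**Figure D5:**
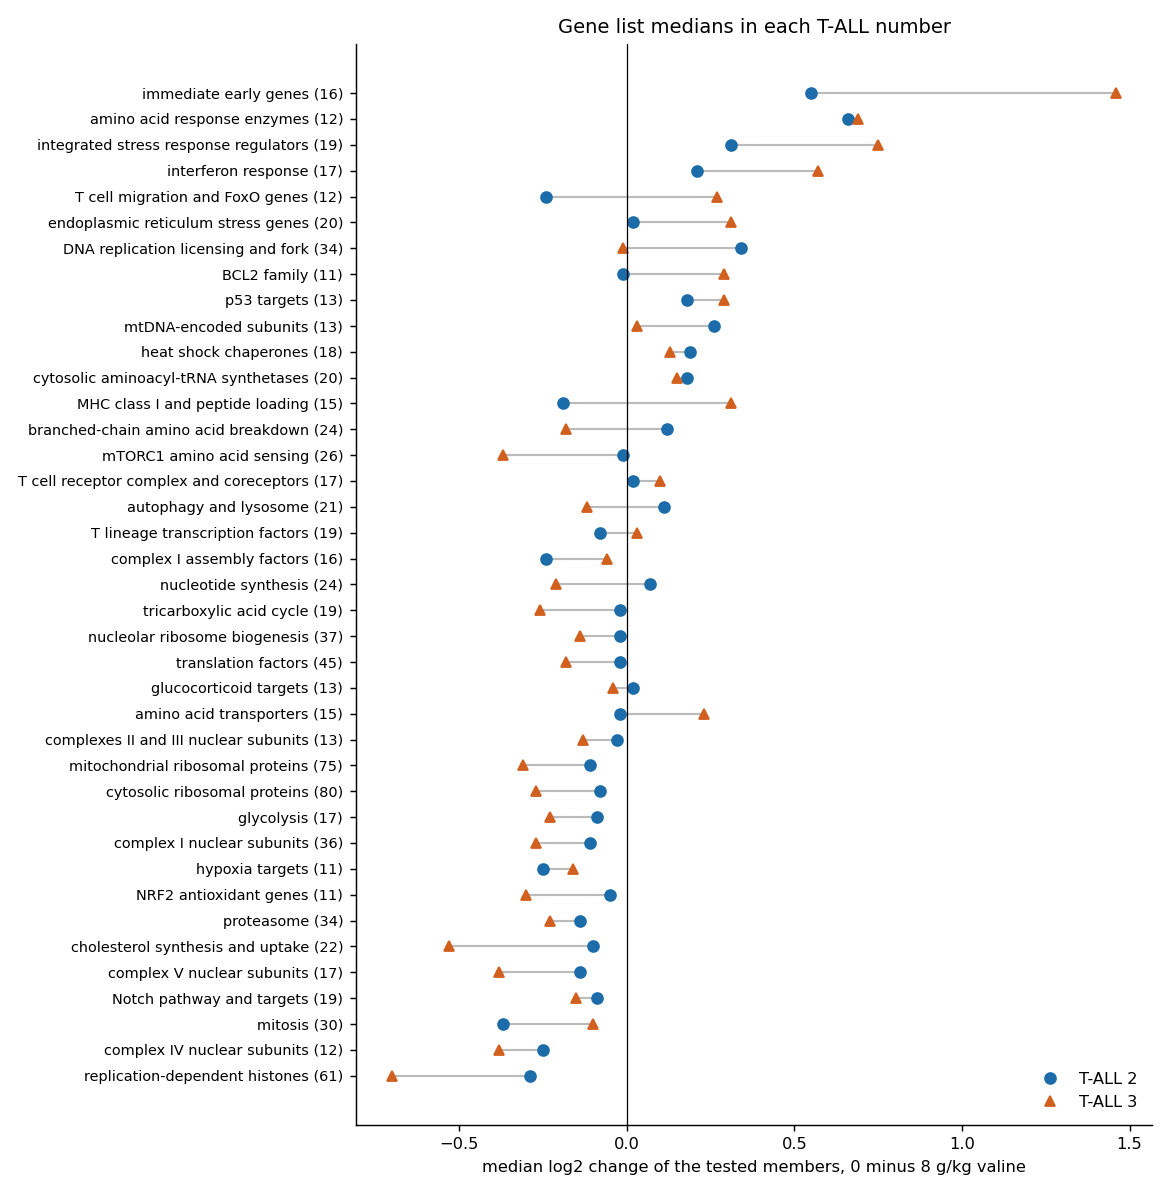
Median log2 change of the tested members (number in brackets) of 39 gene lists at 0 against 8 g/kg valine, computed in T-ALL 2 (circles) and T-ALL 3 (triangles) from 1 library per diet each. Amino acid response enzymes are at 0.66 and 0.69 and histones at -0.29 and -0.70, while several lists have their 2 points on opposite sides of 0.

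Beyond the lists, the genes that stood farthest from the controls by the naming rule were of mixed kind. On the higher side, Cntnap1, an axonal adhesion protein, had 23 and 25 reads against 2 and 1 (3.53 ± 0.61). Cox6a2, the muscle form of an oxidase subunit, had 12 and 6 reads against 0 and 1. The myeloid adaptor Tyrobp had 6 and 4 reads against 0 and 1. With so few control reads, these higher genes may have passed the filter mainly through libraries where they were high. They were picked for their distance from the controls, so that distance is no support. Among the lower genes, Rab29, a small GTPase, had 1.26 and 1.97 FPKM against 7.85 and 8.45 (-2.05 ± 0.37). Coa3, an assembly factor of cytochrome oxidase, had 3.49 and 8.16 against 18.8 and 23.4 (-1.87 ± 0.39). Mrps36 had 17.6 and 6.88 against 38.7 and 46.2 (-1.89 ± 0.41). Most of these rest on fewer than 20 reads in each library without valine. B4galt1, a galactosyltransferase with more reads, had 44 and 25 against 149 and 105 (-1.03 ± 0.21), and the nuclear receptor Rxrb had 23 and 14 against 87 and 63 (-1.16 ± 0.28). At the lower limit of level, 1110032A03Rik (mean 1.0009 FPKM) and Nat14 (1.0016) were just inside the filter, and Igsf9 (0.9987) and Pde4d (0.9982) just outside.

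The diets with partial valine place these differences along the dose, although they share the libraries at 0 g/kg with the main comparison. Against the mean of 0.4 and 0.8 g/kg, limma called 0 genes (685, or 6.81%, at an unadjusted p under 0.05) and voom 8 (0.0796%). These 8 were Hspa1a, Ppp1r15a, Dusp1 and S100a9, all higher without valine, and the histone genes H2afx, Hist1h3f, Hist2h2aa1 and Hist2h3b, all lower. Ppp1r15a had 18.2 and 28.2 FPKM at 0.4 g/kg and 21.5 and 14.1 at 0.8 g/kg, close to its controls. Hspa1a was graded, with 59.9 and 112 FPKM at 0.4 g/kg and 16 and 3.07 at 0.8 g/kg. The amino acid response enzymes had a median log2 change of 0.17 against partial valine, where it was 0.73 against 8 g/kg. They took 20.2 and 18.4 per 10000 reads at 0.4 g/kg and 15.7 and 20.9 at 0.8 g/kg. At 0 g/kg it was 22.6 and 21.9, and in the controls 14.4 and 13.5. Asns was not ordered by dose: it had 22.3 and 12.3 FPKM at 0.4 g/kg, and 8.22 and 46.8 at 0.8 g/kg. The library with 46.8 was T-ALL 3, which also had 48.6 FPKM of Atf5 against 11.7 in T-ALL 2, and was the shallowest of the 8 with 364685 reads. Myc lay between the ends, with 221 and 183 FPKM at 0.4 g/kg and 230 and 201 at 0.8 g/kg. Mitotic genes and histones did not: Ccnb2 had 104 and 115 FPKM at 0.4 g/kg and 86.8 and 142 at 0.8 g/kg, at or above its controls.

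RPF from the same diets, which report ribosomes on the RNA, were read for the same genes. Their libraries carry the same T-ALL numbers as the total RNA, so they are another readout and are not counted as separate replicates. In RPF the 14 neutrophil markers summed to 28.6 and 3.54 per 10000 reads at 0 g/kg, against 0.239 and 0.42 in the controls. Limma called 0 of 9718 genes there (697, or 7.17%, at an unadjusted p under 0.05), and voom 6 (0.0617%), of which Hspa1a, Hspa1l, Mpo and S100a9 were higher and Hba-a2 and Hist1h3f lower. The RPF libraries held 80367 and 79154 reads at 0 g/kg against 41848 and 71432 in the controls. In them 32.16% and 32.992% of genes had 0 reads, against 44.572% and 36.572%. At this depth single reads move many log2 changes strongly, and the list medians below share this limit. RPF changes above 0 made up 56.8% of all genes, with a median of 0.12 in limma and -0.02 in voom. Counts are read against that share. Of 11 amino acid enzymes with RPF values 10 were higher (median 0.98), and of 15 immediate early genes 10. Asns had 9 and 2 footprint reads against 1 and 0, and Ppp1r15a 32 and 19 against 4 and 0. Of 58 histones 8 were higher (median -0.73), and of 36 nuclear complex I subunits 13 (median -0.43). DNA replication genes were not higher in RPF, with 15 of 33 and a median of -0.04. Myc had 68 and 56 footprint reads against 41 and 68, with a log2 change of -0.32.

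Changes between same-numbered libraries were related but far from equal in the 2 T-ALL numbers. These numbers were not taken to pair the libraries, so each change is a difference of single libraries. Across the 10054 genes, the change in T-ALL 2 and that in T-ALL 3 correlated at r = 0.145, and at 0.277 across the 3409 genes with a mean of at least 20 FPKM. Genes are not independent replicates, so this is a description.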

How the data were processed

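Total RNA and ribosome-protected fragments were prepared from sorted leukaemic cells with a ribosome profiling kit, per the labels' protocols. The authors deposited 1 table of FPKM values for 12012 genes in 16 libraries. Tools listed, without their roles, are STAR 2.5.0c, edgeR 3.14.0, Bowtie2 2.3.4 and cutadapt 1.18, and the builds are mm10 and GRCm38, per the submitters' processing notes. The method and strand setting of the read counting were not given in the labels or the file header.

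The FPKM values are whole multiples of the value of 1 read, so reads were recovered by division: 100% of the 149988 values above 0 came out whole within 0.02 reads. Total RNA libraries held 364685 to 1269364 recovered reads. At such depths genes with few reads have wide counting error. The lengths used in the recovery put the median gene at 3198 bases.

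Limma 3.58.1 in R 4.3.3 was fitted to log2(FPKM + 0.5) with diet as a factor (residual df of 4) and Benjamini-Hochberg adjustment over all 10054 genes. It was tested on simulated data first. Voom on the recovered reads was the count alternative. The other settings tried were 2 pseudocounts, 2 filters, 2 scalings, equal depth, length correction, fewer libraries, the T-ALL number as a block, and each library left out. A lower bound on a fold change sets a group at 0 reads to 3 reads over the group.

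Members and lists were chosen with earlier results of these data known. Genes are named by a rule: up to 15 per direction by unadjusted p among those whose log2 change was 1 or more in size, with no overlap and at least 10 reads over the 4 libraries, then up to 4 by p and 2 by level from each list, and a fixed set. Some further list members, such as Got1, Psph, Psat1, Nr4a1, Eif2ak1, Eif2ak2, Ndufv2, Ndufs3 and Mpo, were chosen after their values were seen. So were Ppp1r15b, Pycr1, Egr3, Klf6, Dusp2, Ier3 and Rragd. Promoter windows are from RefSeq, in which 7729 symbols of tested genes matched, and 9530 matched the gene table.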

Additional observations from a re-analysis of the deposited data

Results flagged for a closer look

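In 5 gene lists the median log2 change pointed one way in T-ALL 2 and the other way in T-ALL 3, by at least 0.1 in each, and the difference between the T-ALLs was not tested. For MHC class I and peptide loading the medians were -0.19 and 0.31, a difference of 0.5 (T-ALL 3 minus T-ALL 2). For T cell migration and FoxO genes they were -0.24 and 0.27, a difference of 0.51. In the opposite order stood branched-chain amino acid breakdown, with 0.12 and -0.18 (a difference of -0.3), and autophagy and lysosome genes, with 0.11 and -0.12 (-0.23). Macrophage and monocyte markers had 0.2 and -0.16 (-0.35). Each value rests on 1 library per diet.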

How the results depend on the processing

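The median of the amino acid response enzymes was above 0 in all 15 settings: 0.64 at a mean FPKM of at least 5, 0.76 with median-ratio scaling, 0.81 with quantile normalization, 0.76 at equal depth, 0.77 after length correction, and 0.59 to 0.81 with 1 library left out. Histones (-0.64 to -0.39) and nuclear complex I subunits (-0.24 to -0.10) stayed below 0 with any 1 library left out. Voom called 3 genes. With 1 library left out limma called 0 to 2 genes, and 335 to 1193 had an unadjusted p under 0.05, with 155 to 366 higher and 180 to 827 lower. The T-ALL number as a replicate block called 0 genes and had 276 higher and 410 lower at an unadjusted p under 0.05. Same-numbered libraries correlated in their deviations at 0.102, 0.11, 0.208 and 0.25 in 4 pairs of diets and at -0.04 and -0.022 in the other 2, so the numbers were not taken to pair the libraries, and what they mark is not known. Of 642 list medians under an alternative 562 moved by less than the replicate spread and 80 by more. Of 1697 values of named genes under an alternative 15, in 12 genes, changed sign. Hsp90ab1 was 0.03 with quantile normalization, and Tsc22d3 0.14 at equal depth. With 1 library left out, the log2 change ranged from -0.33 to 0.16 for Bckdha, -0.77 to 0.08 for Cd3e, -0.46 to 0.04 for Dtx1, -0.63 to 0.02 for Eif2ak4, -0.46 to 0.01 for Fkbp5, -0.36 to 0.02 for Ndufa9, -0.22 to 0.08 for Ndufb8, -0.47 to 0.24 for Ndufs1, -1.92 to 0.48 for Ptcra, -0.43 to 0.01 for Slc43a1 and -0.5 to 0.23 for Tsc22d3. The cause of these moves was not tested.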
